A study of Mus musculus with 4 samples.

Results

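Enzymes that write and erase DNA methylation were followed across 4 cultures of mouse embryonic stem (ES) cells. The group was the 9 symbols Dnmt1, Dnmt3a, Dnmt3b, Dnmt3l, Uhrf1, Tet1, Tet2, Tet3 and Tdg, read by the array probe sets that name a single one of them. Such probe sets numbered 20 of 45101 and covered 8 of the 9 genes. Tdg was the exception, since its 3 probe sets also name 2 pseudogenes. A probe set is a group of short oligonucleotides whose combined brightness is read as the level of a transcript. Its value here is the MAS5 signal on a linear scale. Of the 20 probe sets, 19 passed the filter on low signal and gave tests for 7 genes, and the 1 probe set of Tet3 did not pass.

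The cultures were E14.1 ES cells of 2 Sall4 genotypes, heterozygous (flox/-, line HET18) and labelled null (delta/-, line KO1). Each line was grown on gelatin and on blasticidin-resistant fibroblasts as feeder cells, which gave 4 groups of 1 array. Every culture, the heterozygous controls included, carried a blasticidin-resistance gene targeted to Oct3/4 and grew in serum-containing medium with leukaemia inhibitory factor (LIF) and blasticidin. Each genotype was 1 line, so line and genotype cannot be told apart. The heterozygous cells are not wild type, since they already lack 1 working Sall4 allele. With a single array in each group the spread between replicate cultures is unknown. An exact permutation of 2 arrays against 2 could not give a two-sided p below 0.333. That p is reached when both arrays of 1 group lie above both of the other. The share of all genes with that pattern was not counted.

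Cytosine methylation at CpG sites, where a cytosine precedes a guanine, is laid down by DNA methyltransferases. Dnmt3a and Dnmt3b methylate new sites, helped by Dnmt3l, a relative without catalytic activity, and Dnmt1 copies the pattern after replication at sites that Uhrf1 recognises. The TET dioxygenases oxidise 5-methylcytosine, and the glycosylase Tdg removes the oxidised bases so that repair restores an unmodified cytosine. Mouse ES cells are known to express Tet1 and Tet2, and to tolerate the loss of the methyltransferases. Dnmt3b is known to be raised in epiblast as it leaves the naive state.

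The starts of the 4 genes whose signals varied most are shown here because their CpG content differs widely. Each sequence is the 250 bases before a start in the RefSeq promoter table of GRCm38.p6, 5′ to 3′ on the gene's strand, with each CpG in capitals. For Dnmt3a the start inside the gene is shown, at chr12:3891494-3891743 on the plus strand, since ES cells are known to use an internal promoter for the short form of the enzyme. The Dnmt3b window is chr2:153649199-153649448 on the plus strand and the Tet2 window chr3:133544391-133544640 on the minus strand. For Dnmt3l, the first of 3 annotated starts is given, at chr10:78042037-78042286 on the plus strand.
Dnmt3a: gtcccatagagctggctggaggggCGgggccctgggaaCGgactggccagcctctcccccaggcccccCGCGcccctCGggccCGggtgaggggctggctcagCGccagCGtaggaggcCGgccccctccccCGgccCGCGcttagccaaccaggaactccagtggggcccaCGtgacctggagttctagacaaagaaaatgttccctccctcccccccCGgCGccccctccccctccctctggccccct
Dnmt3b: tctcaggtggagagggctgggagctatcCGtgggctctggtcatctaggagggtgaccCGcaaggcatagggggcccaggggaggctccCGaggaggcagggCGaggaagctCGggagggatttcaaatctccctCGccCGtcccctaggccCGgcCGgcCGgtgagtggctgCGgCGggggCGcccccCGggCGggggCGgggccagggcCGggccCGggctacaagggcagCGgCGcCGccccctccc
Dnmt3l: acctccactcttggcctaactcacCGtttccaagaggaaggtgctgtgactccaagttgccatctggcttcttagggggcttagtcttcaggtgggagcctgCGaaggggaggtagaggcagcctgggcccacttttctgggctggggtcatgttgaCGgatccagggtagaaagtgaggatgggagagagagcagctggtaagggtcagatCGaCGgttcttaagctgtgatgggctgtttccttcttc
Tet2: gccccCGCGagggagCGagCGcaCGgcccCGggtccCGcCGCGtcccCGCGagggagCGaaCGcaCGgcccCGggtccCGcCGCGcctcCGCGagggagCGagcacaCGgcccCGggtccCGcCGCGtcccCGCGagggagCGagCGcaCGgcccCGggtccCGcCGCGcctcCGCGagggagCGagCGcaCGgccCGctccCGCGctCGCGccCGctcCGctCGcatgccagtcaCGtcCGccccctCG

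The Tet2 window held 51 CpG sites, a number reached by 0.067% of the 32851 windows in the table. The Dnmt3b window held 21 and the internal Dnmt3a window 15, numbers reached by 16.3% and 27.3% of windows. The Dnmt3l window held 5, against a median of 6 over all windows, and the other 2 Dnmt3l starts had 4 and 3. The outer Dnmt3a starts were far richer, with 38 and 40 CpG sites. All 9 genes had an entry, with 16 windows between 2 and 51 CpG sites and a median of 16. The letters GGGCGG or their complement, a core that Sp1-type factors bind, were in 11 of the 16 windows and in 32.7% of all windows. ATATT or its complement, an AT-rich string of the kind that Sall4 zinc fingers bind, was in 1 of the 16, a Dnmt1 start, and in 23.3% of all windows. The GC content of the 16 windows lay between 50.4% and 83.6%, against a median of 52.4% over all windows. The motif counts were not adjusted for it. The outer Dnmt3a windows overlap each other, and both hold GGGCGG or its complement. The 2 motifs share no letters that could overlap, and a match describes the sequence only.

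The brighter probe set of Sall4 gave 1126.5 (heterozygous) and 1670.5 (labelled null) in feeder-free culture, and 780.8 and 1452.4 with feeders. Where it lies relative to the deleted part is not known, so it does not check the labels, on which all directions by genotype rest. Of the ES cell markers, all 12 were above the filter signal of 9.46 on each array, with Sox2 between 2147.1 and 2660.6. By genotype 11 of the 12 had a fitted log2 difference below 0, against 48.7% of all genes, at a median of -0.19. By limma 0 passed, against 0.032% of all genes, and 6 were lower at an unadjusted p under 0.05, against 12.3% in either direction. The median was -0.31 in the feeder-free pair of arrays and -0.11 in the pair with feeders. The lowest was Fgf4, a growth factor gene, at -1.76. It gave 400.5 (heterozygous) and 103.3 (labelled null) in feeder-free culture, then 516.3 and 167 with feeders. By feeders 1, the factor gene Klf4, rose (log2 0.91, adjusted p = 0.0228), against 3.88% of all genes. The part of cell state in the results below was not tested. Fibroblast markers, the type of the feeder cells, had a summed signal over 30 genes of 6810 (heterozygous) and 14629 (labelled null) in feeder-free culture, and 32378 and 39268 with feeders. None of the 30 was at 0, and 8 were under the filter signal on the heterozygous array without feeders. The feeder-free sums rest on the brighter markers, above all Vim, which gave 1730.3 and 4448.5. Over the 30 genes the median log2 difference of that pair of arrays was 1.14. Col1a1 gave 1.5 and 36 there, and Col1a2 38.4 and 36.2. In such bulk RNA, fewer cells of a type and less RNA per cell cannot be told apart.

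Dnmt3b, a de novo methyltransferase, was brightest in heterozygous cells without feeders. Its brighter probe set (1449052_a_at) read 2446.2 there and 1372.5 in feeder-free cells labelled null, while with feeders the heterozygous cells gave 1300.9 and those labelled null 1232. Its other probe set (1418351_a_at) gave 529.5, 303.4, 297.2 and 254.7 in the same order. Both thus had 1 high array and 3 others near each other. The array labelled null stood at 56.1% of the heterozygous one without feeders and at 94.7% on feeders by the first probe set, and at 57.3% and 85.7% by the second. With feeders the signal was 53.2% of the feeder-free one for the heterozygous line and 89.8% for the line labelled null.

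Dnmt3a, the other de novo enzyme, had the same array on top by 3 of its 5 probe sets. The brightest (1423064_at) read 273.1 in feeder-free heterozygous cells and 105.3 in feeder-free cells labelled null, while the signals with feeders were 72.6 and 87.1. The second (1423066_at) gave 199.9, 93.7, 57.3 and 50.6 in that order. A dimmer one (1423065_at) gave 62.1, 33, 17.4 and 24.2. The lowest array was the heterozygous one on feeders for 1423064_at and 1423065_at and the labelled-null one on feeders for 1423066_at, while the highest array stood 3.57 to 3.95 times above the lowest in signal. The 2 remaining probe sets of Dnmt3a had no such pattern. One (1423063_at) stayed between 58 and 64.9 on all 4 arrays, and the other (1460324_at) was lowest in heterozygous cells without feeders, at 30.1, and highest in cells labelled null on feeders, at 46.7. The table that names the probe sets does not say which part of the transcript, or which isoform, each reads.

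The single high array was set against all 12485 genes tested, each read by its brightest probe set as log2(signal + 4.6). Dnmt3a and Dnmt3b were highest in heterozygous cells without feeders and at least 1.5-fold over the next array. That held for 2 of the 7 tested genes of the group and for 1.04% of all genes. The heterozygous array without feeders was the highest of the 4 for 4 of the 7 (Dnmt3a, Dnmt3b, Uhrf1 and Tet1) and for 25.2% of all genes. This way of counting was chosen after the values were seen and is a description of 4 arrays. Markers of the primed epiblast had the same array on top for 6 of 9 genes and as a sum over the 9, which was 1302 against 783, 496 and 644. That sum rests on the brighter markers, above all Pou3f1, a transcription factor gene, which gave 426, 136, 45.6 and 54.1 in the order used above. Lef1, Zic2 and Sox3 had another array on top, and Lef1, a factor of Wnt signalling, gave 88.2, 260.6, 20.3 and 288.3. Of the 9, 0 passed by genotype and 1, Car4, fell on feeders (log2 -1.52, adjusted p = 0.0421 by limma), against 0.881% of all genes. At an unadjusted p under 0.05 stood 4 lower and 3 higher by genotype, against 12.3% of all genes in either direction. By feeders 5 were lower, against 7.77%. The part that other cell states in the culture have in the Dnmt3a and Dnmt3b signals was not tested.

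**Figure D1:**
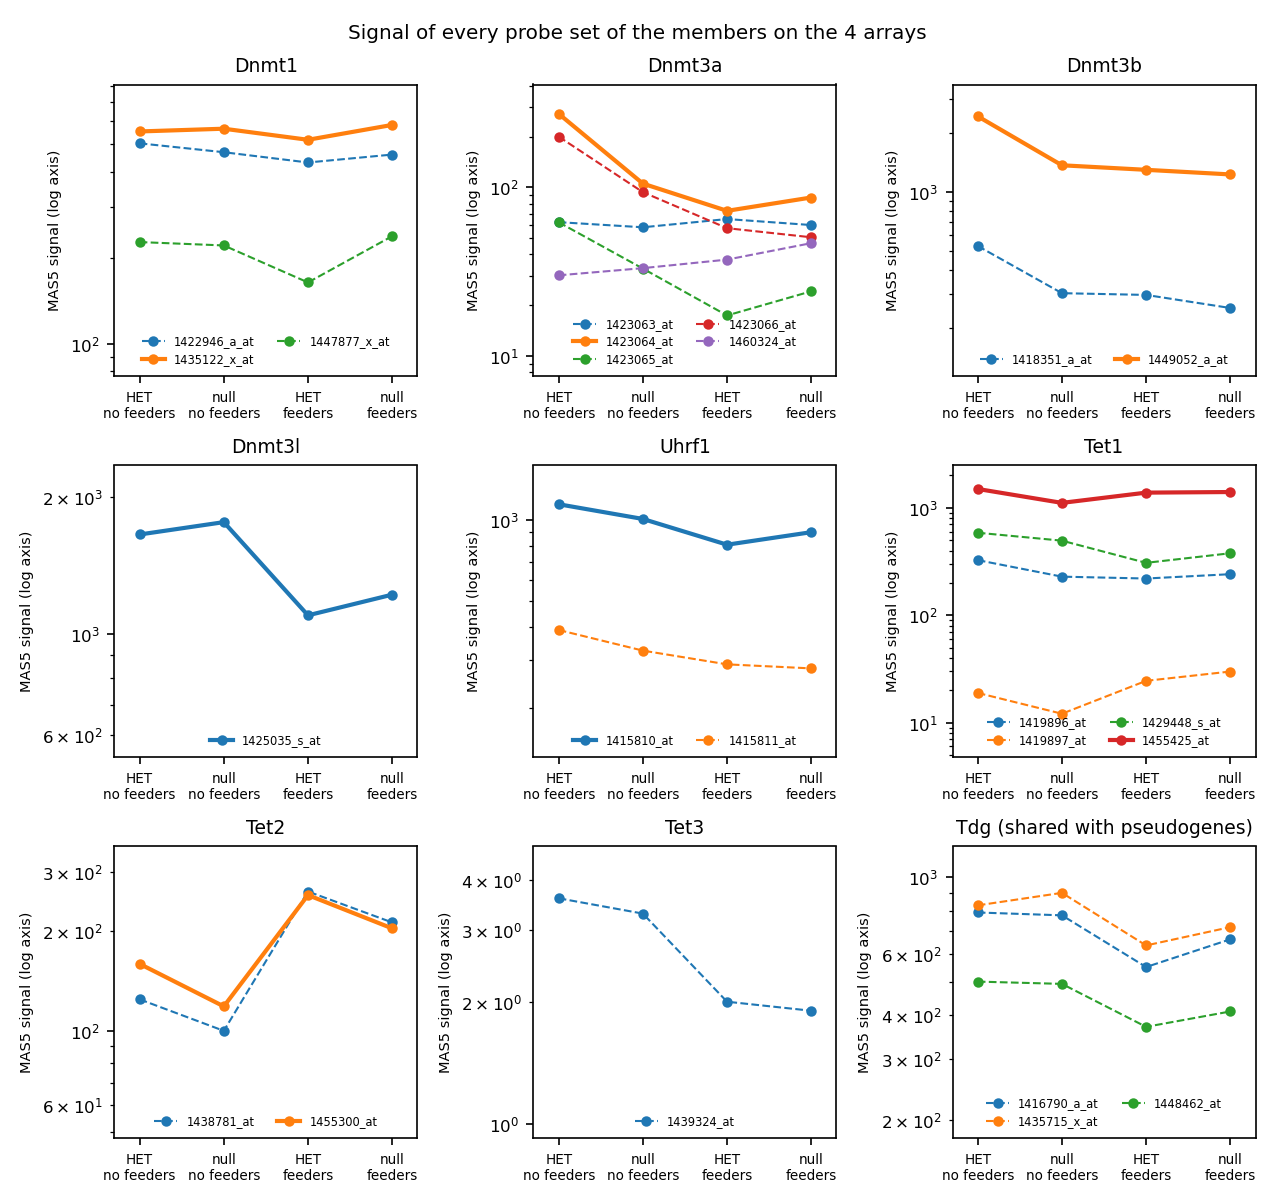
MAS5 signal (log axis, scaled separately in each panel) of every probe set of the 9 genes on the 4 arrays, with the probe set that entered the main test drawn as a thick solid line and others dashed; Tdg probe sets also name pseudogenes, and no array has a replicate. Dnmt3b and 3 probe sets of Dnmt3a are highest in heterozygous cells without feeders (HET), Dnmt3l is lower and Tet2 higher on both arrays with feeders, and the Tet3 signals lie between 1.9 and 3.6.

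By the rule of smallest distance between centred log2 signals, the gene closest to Dnmt3a over the 4 arrays was Pim2, which encodes a serine/threonine kinase. Its signals were 270 and 103 in feeder-free culture, then 80 and 88.6 with feeders, at a distance of 0.13. The next were Zbtb8a at 0.32, Prima1 and Tlcd1 at 0.45 each, and Cdk12, a kinase of transcription elongation, at 0.47. Dnmt3b was number 44 of 12484 by this distance, at 0.67, and Uhrf1 number 936. With 4 points per gene, likeness is weakly defined.

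Dnmt3l, the cofactor of the de novo enzymes, fell on feeders and was the 1 gene of the group to change by the test. Its only probe set (1425035_s_at) gave 1652.4 (heterozygous) and 1758.7 (labelled null) in feeder-free culture, then 1098.7 and 1219.6 with feeders. No other probe set of Dnmt3l can check these signals, and leaving out probe sets ending in x_at and s_at removes the gene. Both arrays with feeders were below both without, at 66.5% of the feeder-free signal for the heterozygous line and 69.3% for the other line. The fitted log2 difference was -0.56 (SE 0.09, adjusted p = 0.0346 over all genes). On each background the array labelled null was slightly above the heterozygous one, and the fitted genotype difference of 0.12 (SE 0.09, adjusted p = 0.663) did not pass. The call for feeders was lost with quantile normalization (adjusted p = 0.054), with no filter or a filter at the 60th percentile, without a variance trend, and in a model with feeders alone, at adjusted p between 0.054 and 0.217 over these settings. Over the settings with all 4 arrays, those that kept the call included, it lay between 0.0235 and 0.217. It was also lost with any 1 array left out in that model of feeders alone.

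Dnmt1, which maintains methylation after replication, varied least among the tested genes of the group, each read by its brightest probe set. Its brightest probe set (1435122_x_at) gave 553.1 (heterozygous) and 565.5 (labelled null) in feeder-free culture, then 517.2 and 583 with feeders. A second (1422946_a_at) gave 502.6, 467.9, 430.7 and 459.1. The highest array of the first was 1.13 times the lowest in signal, and that of the second 1.17 times. The dimmest (1447877_x_at) was lowest in heterozygous cells on feeders, at 163.8, and lay between 220.7 and 237.8 on the other arrays. Its highest array was 1.45 times its lowest, so the small range does not hold for every Dnmt1 probe set. The fitted log2 differences were 0.10 between genotypes (SE 0.13, adjusted p = 0.796) and -0.03 by feeders (SE 0.13, adjusted p = 0.93). Names ending in x_at mark probe sets that can bind more than 1 transcript.

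Uhrf1, which brings Dnmt1 to newly copied DNA, read 1146.8, 1010.8, 810.3 and 902.2 in the same order by its brighter probe set (1415810_at). The other (1415811_at) gave 389.5, 326.3, 290 and 280.1. Both arrays with feeders were lower than both without by either probe set. The fitted log2 difference by feeders was -0.33 (SE 0.13, adjusted p = 0.213), which did not pass, and that between genotypes was -0.01 (SE 0.13).

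Tet2, a TET dioxygenase, was higher with feeders in both lines. Its probe set 1455300_at gave 159 (heterozygous) and 118.6 (labelled null) in feeder-free culture, then 255.5 and 203.1 with feeders. The other, 1438781_at, gave 124.5, 100.2, 261.9 and 211.6. The array labelled null was below the heterozygous one in both conditions. It stood at 74.6% and 79.5% by the first probe set and at 80.5% and 80.8% by the second. The fitted log2 difference by feeders was 0.71 (SE 0.17, adjusted p = 0.0807) for the first, which entered the test per gene, and did not pass. In the fit over all 22986 probe sets the second rose, by 1.05 (SE 0.17, adjusted p = 0.021), where 4.24% of probe sets rose. The genotype difference of -0.37 (SE 0.17, adjusted p = 0.458) did not pass. Fibroblast markers moved with feeders much further, with 24 of 30 risen, against 3.88% of all genes, and 0 fallen. Their median log2 difference was 3.13 over the 30, and the part of feeder RNA in the Tet2 signal was not tested.

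Tet1, the TET gene best known from ES cells, had probe sets that differed among themselves. The brightest (1455425_at) gave 1496.2 (heterozygous) and 1110.6 (labelled null) in feeder-free culture, then 1383.6 and 1401.5 with feeders, so that 1 array was lower than the others. A second (1429448_s_at) gave 585.6, 494.2, 307.2 and 377.4, lower on both arrays with feeders. The next (1419896_at) was highest in heterozygous cells without feeders, at 325.6, with the others between 219.5 and 240.9. The last (1419897_at) was weak, from 12.1 to 29.9, with its 2 higher signals on feeders. The first gave fitted log2 differences of -0.20 between genotypes (SE 0.13, adjusted p = 0.592) and 0.11 by feeders (SE 0.13, adjusted p = 0.672). The feeder difference of the second was -0.65 (SE 0.17, adjusted p = 0.0883 over all probe sets). The sign of the feeder difference of Tet1 therefore depends on the probe set, and the mean of the 4 gave -0.03.

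Tet3, the TET enzyme of the oocyte and zygote, read 3.6, 3.3, 2 and 1.9 by its single probe set, under the filter signal on every array, and was given no fold. Tdg, the thymine DNA glycosylase, could not be read apart from its pseudogenes. The 3 shared probe sets were lower on both arrays with feeders. The brightest (1435715_x_at) gave 828.5 and 899.9 in feeder-free culture and then 635.5 and 717.3 with feeders, the second (1416790_a_at) 790.3 and 775.6 and then 550.9 and 661.8, and the dimmest (1448462_at) 500.3 and 492.8 and then 370.9 and 410.6. On feeders the signals were 69.7% to 76.7% of the feeder-free ones for the heterozygous line and 79.7% to 85.3% for the line labelled null.

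The first question was how the group differed with Sall4 genotype in both feeder conditions. Of the 7 genes tested, 0 passed by limma, against 0.032% of all genes, and 1, Dnmt3b, had an unadjusted p under 0.05, against 12.3% of all genes. The fitted log2 difference of Dnmt3b was -0.45 (SE 0.18, adjusted p = 0.401) and that of Dnmt3a -0.54 (SE 0.38, adjusted p = 0.615). Both rest on the heterozygous array without feeders, since the pair of arrays on feeders gave -0.08 for Dnmt3b and 0.25 for Dnmt3a. Leaving out the heterozygous feeder-free array, with genotype alone in the model, gave 0.00 and 0.38. Those 2 values also hold part of the feeder difference. In 5 of the 7 the difference was below 0, with a median of -0.20, against 48.7% of all genes and a median of 0.01. Without feeders, where a single pair of arrays gives no test, 1 of the 7 (Dnmt3a) was at least 2-fold lower in cells labelled null, against 3.26% of genes. Its log2 difference there was -1.34 by the brightest probe set and -0.64 by the mean of its 5, so the 2-fold size depends on the probe set. On feeders 0 of the 7 reached 2-fold in that direction, against 2.21%. The median of the 7 was -0.41 in the feeder-free pair of arrays and 0.15 in the pair with feeders.

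The second question was what feeders changed. Of the 7 genes 1 fell (Dnmt3l) and 0 rose, against 0.881% and 3.88% of all genes. At an unadjusted p under 0.05 stood 4 lower genes (Dnmt3a, Dnmt3b, Dnmt3l and Uhrf1), against 7.77% of genes, and 1 higher gene (Tet2), against 14.1%. The fitted log2 difference was -1.05 for Dnmt3a (SE 0.38, adjusted p = 0.187) and -0.53 for Dnmt3b (SE 0.18, adjusted p = 0.172). Without the heterozygous feeder-free array these were -0.39 and -0.12 with feeders alone in the model, which also hold part of the genotype difference. With the mean of probe sets the Dnmt3a difference was -0.58. Over all probe sets a further Dnmt3a probe set (1423066_at) fell by 1.28 (SE 0.26, adjusted p = 0.0392), where 1.65% of probe sets fell. The median of the 7 was -0.50 for the heterozygous line and -0.16 for the line labelled null, against 0.03 and 0.04 over all genes. Both questions use the same 4 arrays, and the heterozygous array without feeders enters both as a comparator. No gene of the group was 2-fold different in the same direction in both conditions of the other factor, by genotype or by feeders, against 1.11% and 4.49% of genes.

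**Figure D2:**
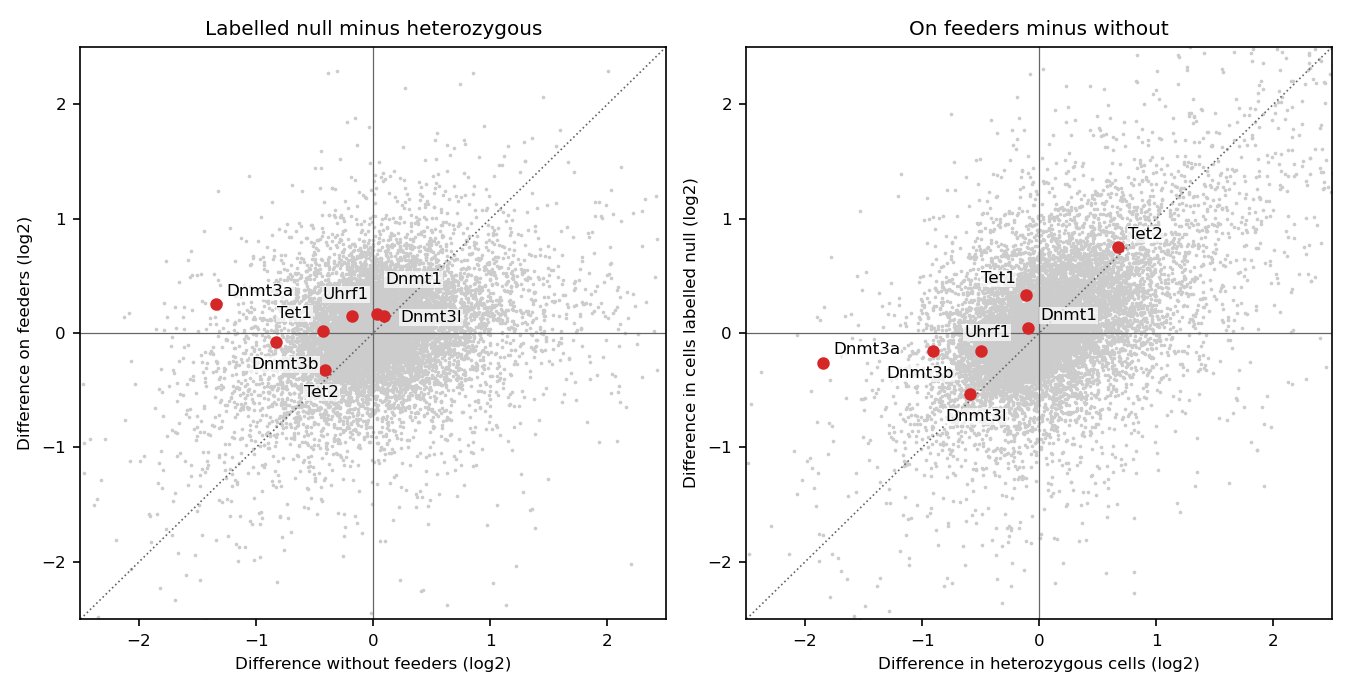
Log2 difference of single arrays for each gene, labelled null minus heterozygous without feeders against on feeders (left), and on feeders minus without in heterozygous cells against cells labelled null (right); grey points are the 12485 genes tested, of which those beyond 2.5 lie outside the axes, red points the 7 genes of the group, and the dotted line marks equal differences. Dnmt3a and Dnmt3b lie far to the left and near 0 on the other axis in both panels, while Dnmt3l and Tet2 lie close to the dotted line in the right panel.

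**Figure D3:**
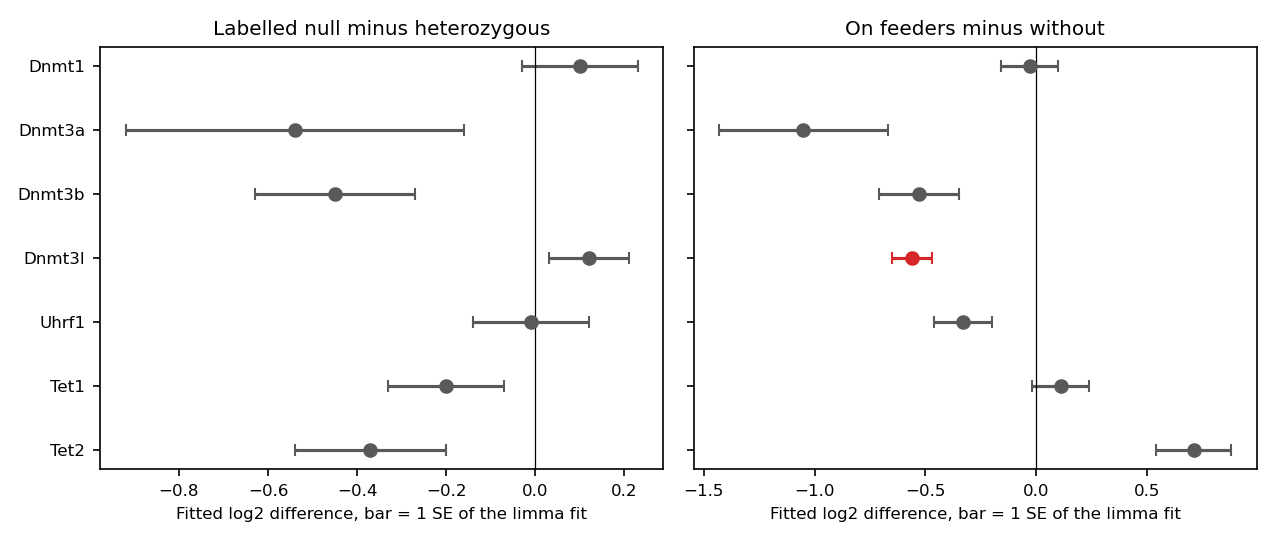
Fitted log2 difference of the 7 tested genes by genotype (left) and by feeders (right), with bars of 1 SE from the additive limma fit over 4 arrays; red marks an adjusted p under 0.05. Dnmt3l by feeders, at -0.56, is the only red point, and the widest bars are those of Dnmt3a, with an SE of 0.38.

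Factors that act with these enzymes were described from lists, chosen with earlier results of these arrays known. Over all genes 0.032% passed by genotype in either direction, while by feeders 3.88% rose and 0.881% fell. Among 17 genes of maintenance and targeting, 0 passed in either comparison by limma, and the median was -0.04 by genotype and -0.11 by feeders. An unadjusted p under 0.05 was found for 1 gene by genotype, against 12.3% of all genes in either direction. By feeders it was found for 1 lower gene, against 7.77% of all genes. Dppa3, a maternal factor known to keep Uhrf1 off chromatin, had the lowest genotype difference, at -2.26 (SE 0.26, adjusted p = 0.107), from signals of 219.2 (heterozygous) and 29.5 (labelled null) in feeder-free culture, then 251.8 and 68.4 with feeders. The histone methyltransferase gene Ehmt2 followed at -0.32. Uhrf2, a relative of Uhrf1, had the highest, at 0.54 (SE 0.25, adjusted p = 0.462), from 133 and 267.3 in feeder-free culture, then 167 and 178.6 with feeders. Smchd1 followed at 0.13. By feeders the highest were Dppa3 at 0.65 and Kdm1b at 0.24, and the lowest Setd2 at -0.45 and Hells, a remodeller needed for methylation of repeats, at -0.31. Setd2 was the 1 gene by feeders with an unadjusted p under 0.05.

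Proteins that bind methylated CpG, and their relatives, gave 7 tested genes, whose median was 0.23 by genotype and 0.05 by feeders. All 7 fitted differences by genotype were above 0, where 48.7% of all genes were below 0, and none passed. The highest were Mbd2, at 0.58 (SE 0.26, adjusted p = 0.445), and Zbtb4, at 0.49, and the lowest Mbd1, at 0.09, and Zbtb38, at 0.13. In single pairs of arrays Mbd1 had 0.47 without feeders and -0.28 on feeders, and Zbtb4 1.0 and -0.02. Mbd3 had -0.05 and 0.52, and Mbd4 -0.05 and 0.39. Only Mbd2, Zbtb33 and Zbtb38 were above 0 in both conditions. Zbtb4 rose on feeders, by 1.92 (SE 0.35, adjusted p = 0.0419), from 5 and 14.6 in feeder-free culture to 47 and 46.3 with feeders. Its lowest signal lay under the filter signal, so the size depends on the offset, and the call was lost with an offset of 1. Zbtb38 was next by feeders at 0.35, and Mbd3 and Zbtb33, the gene of the factor Kaiso, were lowest at -0.35 each.

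Cofactors of TET enzymes and genes of base excision repair gave 19 tested genes. None passed in either comparison, and the medians were -0.17 by genotype and 0.16 by feeders. At an unadjusted p under 0.05 stood 4 by genotype, all lower, against 12.3% of all genes in either direction. By feeders there were 4, of which 3 were higher, against 14.1% of all genes, and 1 lower, against 7.77%. The lowest by genotype were Apobec1, a cytidine deaminase gene, at -1.24 (SE 0.29, adjusted p = 0.226), and Gadd45b, at -0.85 (SE 0.18, adjusted p = 0.187). Apobec1 gave 17.6 and 5.3 in feeder-free culture, then 52 and 18.1 with feeders. Its lowest signal lay under the filter signal, so its differences by genotype and by feeders depend on the offset. Parp1, a sensor of DNA breaks, had -0.62 (SE 0.12, adjusted p = 0.175), from 1457.3 and 849.5 in feeder-free culture, then 1482.7 and 1075.5 with feeders. It lies outside the rule for named genes and was picked with its signals known. The highest were Gadd45g at 0.25 (SE 0.5) and Cxxc5 at 0.06. The value of Gadd45g averages opposite signs, 1.38 in the feeder-free pair of arrays and -0.88 in the pair with feeders. By feeders the highest were Apobec1 at 1.27 and Prdm14, known to repress the de novo methyltransferases in naive cells, at 0.71 (SE 0.19, adjusted p = 0.104). Prdm14 gave 110.4 and 74.9 in feeder-free culture, then 165.8 and 139.3 with feeders. Apex1, at -0.48, and Gadd45b, at -0.28, were lowest.

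The methyl donor supply had 12 tested genes with medians of -0.03 by genotype and 0.05 by feeders. Gldc, a mitochondrial enzyme that breaks down glycine, had the lowest genotype difference, at -1.37 (SE 0.18, adjusted p = 0.124), with 762.1 and 235.7 in feeder-free culture, then 837.3 and 395.3 with feeders. Gnmt followed at -0.56, from 12.3 and 8 in feeder-free culture, then 26.8 and 14.8 with feeders, so its size depends on the offset. Bhmt, at 0.44, and Nnmt, at 0.32, were highest. Nnmt, which encodes nicotinamide N-methyltransferase, rose on feeders by 3.26 (SE 0.24, adjusted p = 0.0032), from 6 and 8 to 92.1 and 122.1. Both feeder-free signals were under the filter signal. The fibroblast markers rose on the same arrays, and their part in the Nnmt and Zbtb4 signals was not tested. No gene of this list passed by genotype (0 by limma). At an unadjusted p under 0.05 stood 3 lower genes, against 12.3% of all genes in either direction.

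Germline genes whose CpG promoters are known to be kept methylated in somatic cells gave 16 tested genes. Of these 1 fell with the label null, against 0.032% of all genes in either direction, 0 rose and 15 did not pass by genotype. The median was -0.32. Rhox5, a homeobox gene of the X chromosome, was the 1 that fell. Its signals were 2229.4 (heterozygous) and 117.8 (labelled null) in feeder-free culture, then 2660.1 and 247.1 with feeders. limma put this at -3.80 on the log2 scale (SE 0.20, adjusted p = 0.0145), a call that was lost without the variance trend, with genotype alone in the model, or with the filter removed or set at the 60th percentile. Sycp3, of the meiotic chromosome axis, had -1.06 (SE 0.18, adjusted p = 0.152), from 226.8 and 95.7 in feeder-free culture, then 343.5 and 180.8 with feeders. Sohlh2, at 0.67, and Ddx4, at 0.22, were highest. Ddx4 had 0.78 in the feeder-free pair of arrays and -0.34 in the pair with feeders. At an unadjusted p under 0.05 stood 6 lower genes and 1 higher gene, against 12.3% of all genes in either direction. By feeders 0 of the 16 passed, at a median of -0.09. Of the 16, 4 had an unadjusted p under 0.05 by feeders, 2 higher and 2 lower, against 14.1% and 7.77% of all genes. No methylation was measured in these cultures, so the state of these promoters was not known.

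**Figure D4:**
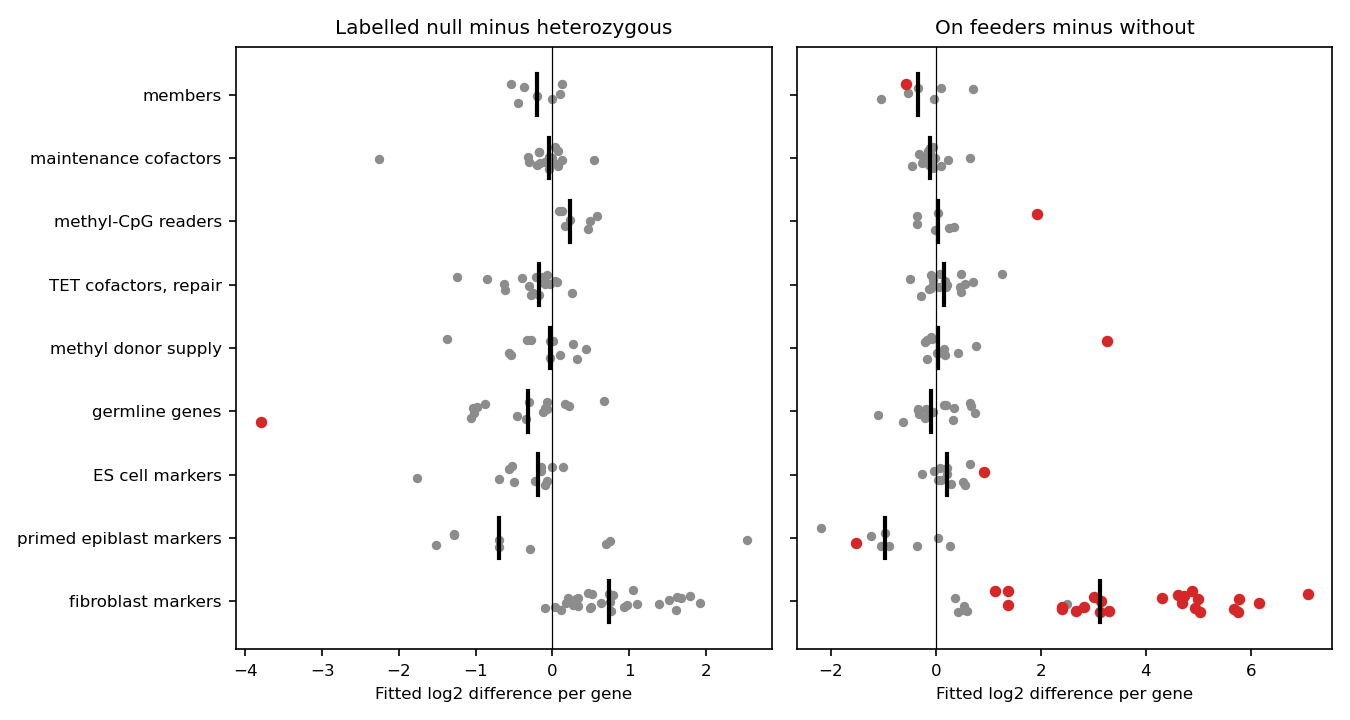
Fitted log2 difference per tested gene by genotype (left) and by feeders (right) for the group, 5 lists of related factors and 3 lists of cell type markers; black bars are list medians and red points have an adjusted p under 0.05. Rhox5 is the red point on the left, at -3.80, and the fibroblast markers hold 24 of the red points on the right.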

How the data were processed

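Total RNA of 4 cultures was labelled with biotin and hybridised to 1 Affymetrix mouse array each, per the labels. The deposited values are array intensities, which are linear MAS5 signals per the submitters' processing notes, with no version and no detection calls. The 2% trimmed mean was 100 on every array, so the authors' scaling was kept. Depth does not apply to arrays, and their number limits the precision.

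Of 45101 probe sets, 64 controls were left out, and 34945 had 1 symbol, 932 several and 9160 none in the platform annotation. Platform symbols were set against RefSeq by Entrez ID, which changed none of them. Signals became log2(signal + 4.6), the offset being the 25th percentile. Where a gene had several probe sets, the one brightest on average (log2) stood for it, and genes with a mean under the 40th percentile (log2 3.81) were not tested. limma 3.58.1 in R 4.3.3 fitted genotype and feeders (lmFit, eBayes with trend) to 12485 genes, two-sided, with Benjamini-Hochberg adjustment at 0.05. The fit left 1 residual degree of freedom and added 4.75 from the prior. The residual measures how far the genotype difference without feeders departs from that on feeders. Every fold and log2 difference carries the offset. The script was tested on simulated data.

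The genes, lists and alternatives were chosen with earlier results of these data known. Named genes were all members, list genes past the threshold, and the 2 highest and 2 lowest of each list by genotype and, for the first 3 lists, by feeders. The 5 genes closest to the member with the widest range were also named.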

Additional observations from a re-analysis of the deposited data

Results flagged for a closer look

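In 4 genes the 2 single-array differences had opposite signs, and the difference between them was not tested. Dnmt3a was lower in cells labelled null without feeders, at -1.34 on the log2 scale, and higher on feeders, at 0.25. For Uhrf1 the same pair of values was -0.18 and 0.15, and for Tet1 -0.43 and 0.02. By feeders Tet1 had -0.11 for the heterozygous line and 0.33 for the line labelled null, and Dnmt1 -0.10 and 0.04. Apart from Dnmt3a without feeders, none of these values reached 1.5-fold.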

How the results depend on the processing

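The count of the 7 genes called by genotype was 0 in every alternative run, while the count by feeders, 1 (Dnmt3l), changed in most. It was 0 with quantile normalization, no filter, a stricter filter at the 60th percentile, the variance trend left out, only the factor tested, or probe sets ending in x_at and s_at left out, which removes the Dnmt3l probe set. It was 3 (Dnmt3a, Dnmt3l, Tet2) with every probe set tested. With 1 array left out it ran from 0 to 2, the 2 being Dnmt3a and Dnmt3b without the feeder-free array labelled null. Those fits used the factor tested alone, since the additive model has no residual degree of freedom on 3 arrays. They assume that the lone array varies like the others. The other factor is unbalanced on 3 arrays, so part of its difference enters the fitted one. Among the other pathway genes, the count by genotype, 1 (Rhox5), was 0 with no filter, the stricter filter, no trend and only the factor tested, and 0 with any array left out. Their count by feeders, 2 (Nnmt and Zbtb4), was 1 (Nnmt) in those 4 settings, with an offset of 1 and with the mean of probe sets, and 0 to 2 with an array left out. The number of genes 2-fold different by feeders in both lines, 0, was 1 (Tet2) with every probe set tested or at 1.5-fold. Over all genes, 595 were called by feeders, against 183 with no trend, 231 with only the factor tested, 268 with the stricter filter, 269 with no filter, 384 with the mean of probe sets and 1354 with every probe set. By genotype 4 were called, against 0 in the first 4 of these settings, 7 with quantile normalization or median centring and 14 with every probe set. Leaving out an array gave 23 to 534 by feeders, with 23 without the labelled-null and 46 without the heterozygous array on feeders, and 0 by genotype.

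Of 208 fitted differences recomputed, 12 changed sign, none of them called. These were Dnmt1 by genotype at -0.01 without x_at and s_at probe sets, Dnmt1 by feeders at 0.01 and Uhrf1 by genotype at 0.01 with quantile normalization, Tet1 by feeders at -0.03 with the mean of probe sets, and 8 with an array left out. With an array left out the genotype difference ran from -1.47 to 0.38 for Dnmt3a, from -0.91 to 0.00 for Dnmt3b, from -0.17 to 0.41 for Dnmt3l, from -0.26 to 0.24 for Uhrf1 and from -0.74 to 0.01 for Tet2. The feeder difference then ran from -1.72 to -0.39 for Dnmt3a, from -0.95 to -0.12 for Dnmt3b, from -0.11 to 0.06 for Dnmt1 and from -0.10 to 0.33 for Tet1. Because 3 arrays do not balance the other factor, these ranges also carry part of its difference. Within single pairs the genotype difference of Dnmt3l was 0.09 without feeders and 0.15 on feeders, and that of Tet2 -0.41 and -0.32. Of 248 differences of single pairs, 8 moved by more than the SE of the fit, 6 of them with the mean of probe sets. Among these, Dnmt3a by genotype without feeders went from -1.34 to -0.64 and by feeders in heterozygous cells from -1.85 to -0.97. Apart from the removed Dnmt3l probe set, the cause of lost calls was not tested. No paired analysis was possible because each group has 1 array and the labels give no replicate numbers. Without detection calls, signal over background was not known for weak probe sets such as that of Tet3.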
